A study of Mus musculus with 11 samples.

Results

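Regulated secretion ends when a granule fuses with the plasma membrane, and the present data describe 10 genes of that last step in alphaTC1-6 cells, a glucagon-producing immortal line of mouse pancreatic alpha cells. The genes were chosen by symbol: the target-membrane SNAREs Snap25 and Stx1a, the vesicle SNAREs Vamp2 and Vamp3, the disassembly factors Nsf and Napa, and the synaptotagmins Syt4, Syt5, Syt7 and Syt13. All 10 were found, each as 1 row, among 53947 gene rows, and all 10 passed the filter on low counts, among 14133 genes that did. Messenger RNA was compared in 4 libraries with Mettl3 knocked down (Mettl3 KD), 4 libraries with Mettl14 knocked down (Mettl14 KD) and 3 libraries with a scramble control, all in alphaTC1-6 cells reverse transfected at 70% confluency and collected 72 h later. The cells are 1 line, the labels do not name the knockdown reagent, and they do not say that the replicates were separate cultures. The p-values therefore measure only the spread between these libraries, which may be technical.

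SNARE proteins sit on opposing membranes and zip into a helical bundle that pulls a vesicle onto its target. Snap25 and syntaxin 1A hold the plasma membrane side and synaptobrevin 2, the product of Vamp2, holds the granule side; after fusion the ATPase Nsf, bound through the adaptor alpha-SNAP, the product of Napa, pulls the bundle apart so that the parts can be used again. Synaptotagmins are membrane proteins with paired C2 domains, and several of them are the calcium sensors that trigger fusion. Mettl3 and Mettl14 are the core of the methyltransferase complex that places N6-methyladenosine (m6A) in messenger RNA, and Mettl3 holds the catalytic site.

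Library totals ran from 19576632 to 22406527 counts, and a single member held between 462 and 14401 counts in a library. Mettl3 was at 5.34 ± 0.449 CPM in Mettl3 KD libraries and 15.4 ± 1.02 CPM in Mettl14 KD, against 14.9 ± 1.02 CPM in scramble, and Mettl14 at 29.3 ± 1.02 CPM in Mettl3 KD libraries and 14.7 ± 0.720 CPM in Mettl14 KD, against 25.2 ± 1.70 CPM in scramble (SD, n = 4, 4 and 3). CPM are counts relative to the library total, scaled between libraries with edgeR's TMM factors. Of 12 alpha cell markers 11 passed the filter, Gcg among them at 28738 CPM or more in each library, while Gc was at 0 throughout. Of 8 beta cell markers 3 passed, with Pdx1 at 0 throughout, and of 5 delta, PP and epsilon cell markers 0 passed the filter. Scramble replicate 2 stood apart: its counts differed from those of the other scramble libraries with a chi-square per degree of freedom of 15.3 and 13.8, against 2.93 between those libraries and 2.11 to 3.87 between replicates of a knockdown. Its median log2 offset from the other scramble libraries was -0.12 over genes whose transcripts are shorter than 1000 bases, against -0.00 over all genes. Its 10 lung and airway markers summed to 104 CPM, against 2.46 to 4.41 CPM in Mettl3 KD, 1.89 to 3.93 CPM in Mettl14 KD and at most 3.31 CPM in the other scramble libraries. Its 11 blood and immune markers summed to 54.4 CPM, against 4.16 to 5.92 CPM in Mettl3 KD, 2.69 to 4.66 CPM in Mettl14 KD and at most 4.13 CPM in the other scramble libraries. The 12 alpha cell markers summed to 38662 CPM in it, against 42950 to 50266 CPM in the knockdown libraries and 46955 CPM or more in the other scramble libraries. The part of these differences in the results was not tested, and values without this library are given where they matter.

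Set on a common scale, as CPM per kilobase of the longest annotated coding transcript, the 10 genes spanned about an order of magnitude. Syt13 led in every group, at 143 ± 3.15 CPM per kb in Mettl3 KD, 172 ± 2.12 in Mettl14 KD and 153 ± 1.93 in scramble. Snap25 came next, at 84.0 ± 2.12, 99.7 ± 3.45 and 103 ± 8.49 CPM per kb in those groups. In scramble the order then ran Napa (68.9 ± 5.03), Vamp2 (54.0 ± 5.03), Syt4 (44.6 ± 1.37), Syt7 (35.0 ± 0.488), Nsf (28.7 ± 0.307), Vamp3 (25.6 ± 0.763), Syt5 (16.8 or more in each library) and Stx1a (12.1 ± 1.22), and no neighbours in this order overlapped between the 3 scramble libraries. The order in Mettl14 KD was that of scramble. In Mettl3 KD Vamp3, at 29.1 ± 0.646 CPM per kb, stood level with Nsf, at 28.9 ± 0.210, and this was the single pair of neighbours whose libraries overlapped. Stx1a, the lowest of the 10, was thus far below its partner Snap25 in level per kb. The length taken for Syt7 was 6624 bases, its longest coding transcript among 9, so its place in the order depends on which transcript the cells use.

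With Mettl3 knocked down, Snap25, Vamp2, Syt5 and Syt13 fell and Stx1a and Vamp3 rose, with log2 fold changes from -0.30 to 0.19. With Mettl14 knocked down, Syt13 alone passed the test, and it rose by 0.17. Set directly against each other, Mettl3 KD libraries held less Snap25, Syt5 and Syt13 and more Vamp3 than Mettl14 KD libraries. Nsf, Napa, Syt4 and Syt7 did not pass in any of the 3 comparisons. The calls were of small size, 1.23-fold at most. Without scramble replicate 2, 4 of the 10 passed in Mettl3 KD against scramble, where 4343 of all genes did, and 4 in Mettl14 KD against scramble, where 2786 of all genes did.

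By edgeR's quasi-likelihood test, adjusted over all 14133 genes, 6 of 10 members passed in Mettl3 KD against scramble, 2 higher and 4 lower, where 31.3% of all genes passed, 15.5% higher and 15.8% lower. In Mettl14 KD against scramble 1 of 10 passed, as higher, where 20.9% of all genes passed and 10.1% were higher. In Mettl3 KD against Mettl14 KD 4 of 10 passed, 1 higher and 3 lower, where 8.1% of all genes passed, 3.66% higher and 4.44% lower. The median log2 fold change of the members was -0.04, 0.01 and -0.03 in these comparisons, and that of all genes tested was 0.00 in each. The groups did not overlap for 4 members in Mettl3 KD against scramble, 1 higher and 3 lower, as for 35.5% of all genes (17.5% higher, 17.9% lower). They did not overlap for 1 member, higher, in Mettl14 KD against scramble, as for 28.9% of all genes (14.4% higher, 14.6% lower), and for 5 members, 2 higher and 3 lower, in the direct comparison, as for 17.6% of all genes (8.43% higher, 9.21% lower). Both knockdowns were set against the same 3 scramble libraries.

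**Figure D1:**
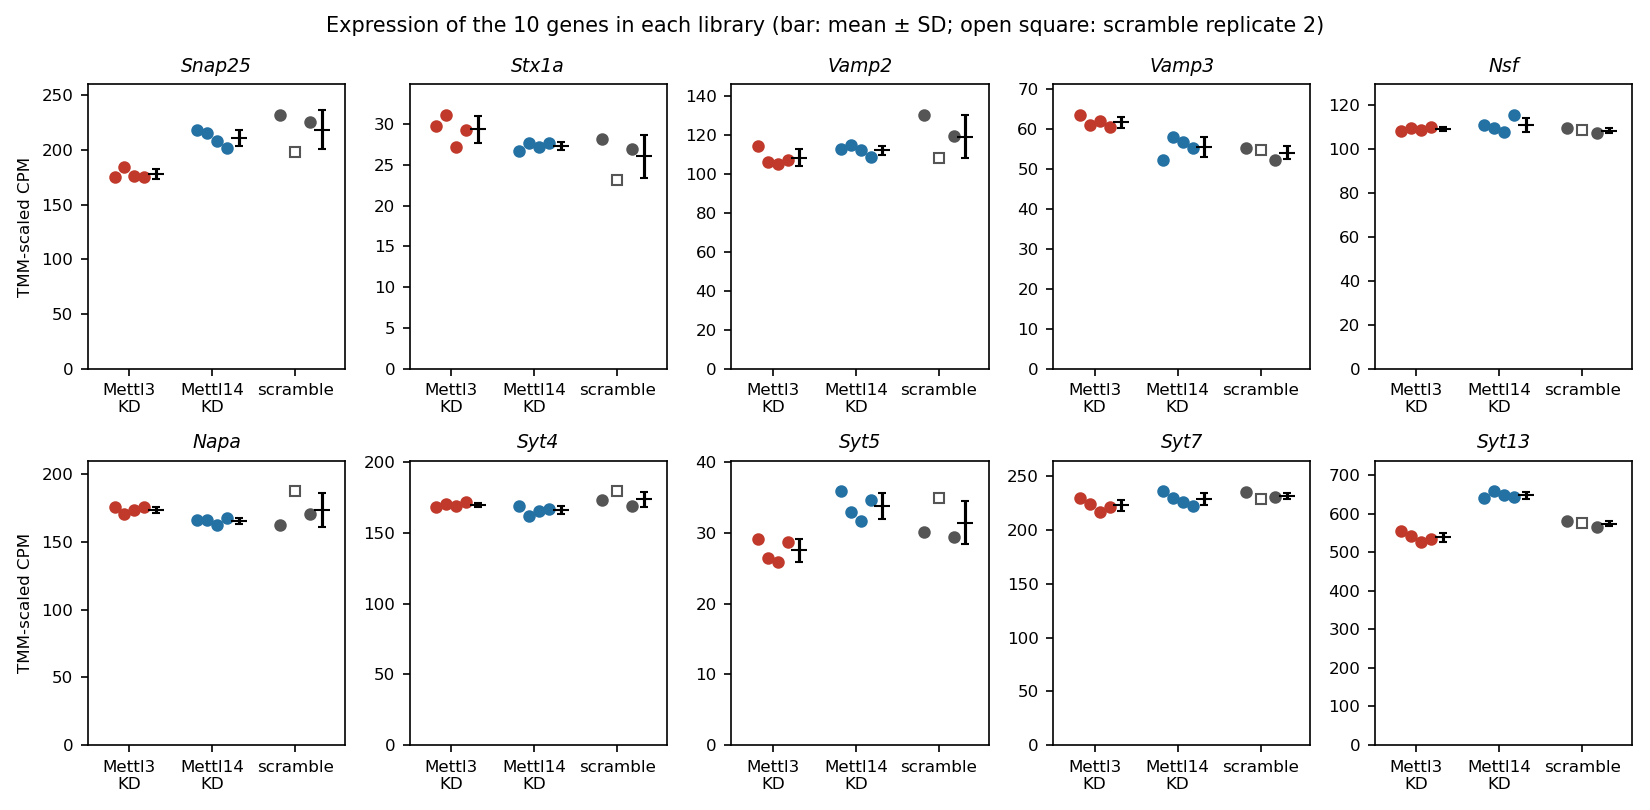
TMM-scaled CPM of the 10 genes (vertical axes, each from 0) in Mettl3 KD, Mettl14 KD and scramble libraries, 1 point per library, with the mean ± SD beside each group and scramble replicate 2 as an open square. The 4 Mettl3 KD libraries lie below all others for Snap25 (175 to 184 CPM) and for Syt13 (525 to 554 CPM), and the 4 Mettl14 KD libraries lie above all others for Syt13 (639 to 657 CPM).

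Snap25 (ENSMUSG00000027273) encodes the SNARE that gives a pair of helices to the fusion bundle. It had 175, 184, 176 and 176 CPM in Mettl3 KD libraries and 218, 216, 208 and 202 CPM in Mettl14 KD, against 232, 198 and 226 CPM in scramble. Each Mettl3 KD library was below each library of the other groups, while Mettl14 KD and scramble overlapped. Snap25 fell by 0.30 ± 0.04 on the log2 scale in Mettl3 KD against scramble, 1.23-fold lower (SE; edgeR, adjusted p = 4.63e-05), and this call held with each of the 11 libraries left out in turn, at -0.364 to -0.255. Against scramble its difference in Mettl14 KD was -0.05 ± 0.04 (edgeR, adjusted p = 0.446). In bulk RNA such a decrease cannot be told apart from a smaller share of cells that express the gene. Counts were summed over the gene's transcripts, so the alternative forms of Snap25 were not separated.

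Stx1a (ENSMUSG00000007207), the syntaxin that pairs with Snap25, had 29.8, 31.2, 27.2 and 29.4 CPM in Mettl3 KD libraries and 26.7, 27.7, 27.2 and 27.8 CPM in Mettl14 KD, against 28.1, 23.1 and 27.0 CPM in scramble. The groups overlapped, and the lowest of all was scramble replicate 2. Stx1a rose in Mettl3 KD by 0.17 ± 0.06 (edgeR, adjusted p = 0.0389). This call rested on few libraries: without scramble replicate 2 the difference was 0.09 ± 0.06 (edgeR, adjusted p = 0.228), and it also failed on leaving out Mettl3 KD replicate 1 (0.16), 2 (0.14) or 4 (0.17), or replicate 3 of Mettl14 KD (0.17). In Mettl14 KD against scramble Stx1a was at 0.06 ± 0.06 (edgeR, adjusted p = 0.495), and at -0.01 without scramble replicate 2.

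Vamp2 (ENSMUSG00000020894), the synaptobrevin of secretory granules and the target of tetanus toxin, had 114, 106, 105 and 107 CPM in Mettl3 KD libraries and 112, 115, 112 and 109 CPM in Mettl14 KD, against 130.1, 108 and 119 CPM in scramble. Scramble replicate 2 lay among the knockdown libraries and the other scramble libraries lay above all of them. Vamp2 fell in Mettl3 KD by 0.14 ± 0.05 (edgeR, adjusted p = 0.0364). In Mettl14 KD its difference was -0.09 ± 0.05 (edgeR, adjusted p = 0.207). Without scramble replicate 2 these differences were -0.20 ± 0.04 and -0.15 ± 0.04, and both passed (edgeR, adjusted p = 4.87e-05 and 0.00240). The Mettl3 KD call failed without scramble replicate 1, at -0.07 ± 0.04, or 3 (-0.13), without Mettl3 KD replicate 2 (-0.13), 3 (-0.13) or 4 (-0.14), and without Mettl14 KD replicate 1 or 4 (-0.13 each).

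Vamp3 (ENSMUSG00000028955), or cellubrevin, is the close relative of Vamp2 found on recycling endosomes. It had 63.6, 61.1, 62.0 and 60.5 CPM in Mettl3 KD libraries and 52.2, 58.1, 56.7 and 55.4 CPM in Mettl14 KD, against 55.3, 54.9 and 52.3 CPM in scramble. All Mettl3 KD libraries were above all others. Vamp3 rose by 0.19 ± 0.04 in Mettl3 KD against scramble, 1.14-fold (edgeR, adjusted p = 0.00132), and held with each library left out in turn, at 0.17 to 0.20. In Mettl14 KD it was at 0.04 ± 0.04 (edgeR, adjusted p = 0.566). Of the stretches of 31 bases in its annotated transcripts 7.95% also occur in transcripts of other genes, the highest share among the 10, and reads on them are assigned by estimation.

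The disassembly factors did not pass. Nsf (ENSMUSG00000034187) was the steadiest of the 10, at 108, 109, 108 and 109.9 CPM in Mettl3 KD libraries and 111, 109, 108 and 115 CPM in Mettl14 KD, against 109, 108 and 107 CPM in scramble. Its log2 difference from scramble was 0.01 in Mettl3 KD, with a 95% interval of -0.06 to 0.08, and 0.03 in Mettl14 KD, with an interval of -0.03 to 0.10. Napa (ENSMUSG00000006024) had 176, 171, 173 and 175 CPM in Mettl3 KD libraries and 166, 166, 163 and 168 CPM in Mettl14 KD, against 162, 187 and 171 CPM in scramble. Its differences from scramble were 0.00 (-0.08 to 0.08) and -0.07 (-0.15 to 0.01). The Napa libraries of Mettl3 KD were all above those of Mettl14 KD, by 0.07 ± 0.04, and this difference did not pass (edgeR, adjusted p = 0.258). Its Mettl14 KD difference passed when scramble replicate 1 was left out, at -0.11 ± 0.04 (edgeR, adjusted p = 0.0378), and was -0.01 ± 0.03 when scramble replicate 2 was left out (edgeR, adjusted p = 0.900).

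Among the synaptotagmins the 2 that passed were at the extremes of level, Syt13 the highest and Syt5 the lowest. Syt13 (ENSMUSG00000027220) encodes an atypical synaptotagmin whose C2 domains lack the residues that bind calcium. It had 554, 542, 525 and 535 CPM in Mettl3 KD libraries and 639, 657, 648 and 643 CPM in Mettl14 KD, against 580.2, 575 and 566 CPM in scramble. The 3 groups did not overlap at all, with scramble between the knockdowns. Syt13 rose by 0.17 ± 0.03 in Mettl14 KD, 1.13-fold (edgeR, adjusted p = 0.000251), at 0.17 to 0.18 with each library left out in turn. In Mettl3 KD it fell by 0.09 ± 0.03 (edgeR, adjusted p = 0.0235), and that call failed without scramble replicate 1 (-0.08) or without Mettl3 KD replicate 3 (-0.08) or 4 (-0.09).

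Syt5 (ENSMUSG00000004961), a calcium-binding synaptotagmin, had 29.2, 26.5, 25.9 and 28.7 CPM in Mettl3 KD libraries and 35.9, 33.0, 31.7 and 34.7 CPM in Mettl14 KD, against 30.1, 35.0 and 29.4 CPM in scramble. The knockdowns did not overlap each other, and scramble replicate 2 lay within the Mettl14 KD range while the other scramble libraries lay below it. Syt5 fell in Mettl3 KD by 0.19 ± 0.06 (edgeR, adjusted p = 0.0276) and was at 0.10 ± 0.06 in Mettl14 KD (edgeR, adjusted p = 0.253). Without scramble replicate 2 the calls changed places: the Mettl3 KD difference became -0.11 ± 0.06 (edgeR, adjusted p = 0.156) and the Mettl14 KD difference 0.18 ± 0.06 (edgeR, adjusted p = 0.0188). The Mettl3 KD call also failed without Mettl3 KD replicate 2 (-0.17) or 3 (-0.16).

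Syt7 (ENSMUSG00000024743), a high-affinity calcium sensor that serves glucagon release in mouse alpha cells, had 229, 224, 217 and 221 CPM in Mettl3 KD libraries and 236, 229.7, 226 and 222 CPM in Mettl14 KD, against 235, 229 and 231 CPM in scramble. Its log2 differences from scramble were -0.06 (95% interval -0.12 to 0.01) and -0.02 (-0.09 to 0.05). Syt4 (ENSMUSG00000024261), a synaptotagmin that binds calcium weakly, had 169, 170.2, 169 and 172 CPM in Mettl3 KD libraries and 169, 162, 166 and 167 CPM in Mettl14 KD, against 173, 179 and 169 CPM in scramble. Its differences were -0.03 (-0.10 to 0.03) and -0.06 (-0.13 to 0.00). The groups overlapped for both genes in both comparisons, and neither passed edgeR's test, with adjusted p = 0.197 and 0.712 for Syt7 and 0.482 and 0.151 for Syt4 in Mettl3 KD and Mettl14 KD. Each of the pair has exons that overlap an antisense gene in the annotation, Gm26859 for Syt7 and Gm26658 for Syt4, and the sources used here do not give whether counting used strand.

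**Figure D2:**
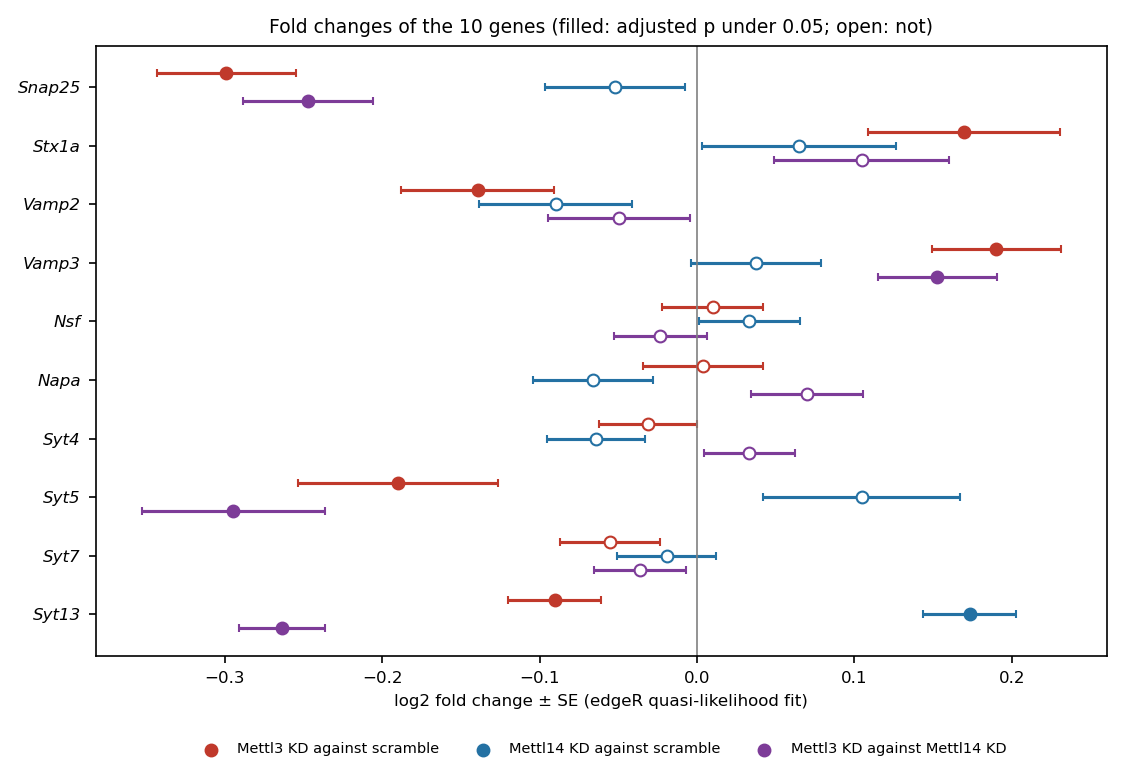
Log2 fold change ± SE (horizontal axis) of each gene in Mettl3 KD against scramble, Mettl14 KD against scramble and Mettl3 KD against Mettl14 KD, with filled points for edgeR adjusted p under 0.05. Snap25, Vamp3, Syt5 and Syt13 are filled in the direct comparison of the knockdowns, and Nsf, Napa, Syt4 and Syt7 are open throughout.

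The direct comparison of the knockdowns does not set a scramble level against either knockdown. The scramble libraries still enter its filter on low counts, its scaling and its estimate of spread. Syt13 was 1.20-fold lower in Mettl3 KD than in Mettl14 KD, at -0.26 ± 0.03 (edgeR, adjusted p = 3.35e-06), Syt5 was 1.23-fold lower, at -0.29 ± 0.06 (edgeR, adjusted p = 0.00313), and Snap25 was 1.19-fold lower, at -0.25 ± 0.04 (edgeR, adjusted p = 0.000805). In each of these genes the 4 Mettl3 KD libraries were below the 4 Mettl14 KD libraries, and the calls held with each of the 11 libraries left out in turn. Vamp3 was 1.11-fold higher in Mettl3 KD, at 0.15 ± 0.04 (edgeR, adjusted p = 0.0152), and its call failed without Mettl3 KD replicate 1 (0.14) or Mettl14 KD replicate 1 (0.12). Stx1a at 0.10 ± 0.06 and Vamp2 at -0.05 ± 0.05 did not pass (edgeR, adjusted p = 0.290 and 0.594), so that the call of Stx1a and Vamp2 in Mettl3 KD is not shown to differ from Mettl14 KD. Against scramble, Mettl3 was 2.79-fold lower in Mettl3 KD and Mettl14 was 1.72-fold lower in Mettl14 KD. The part of this unequal depth in the direct comparison was not tested.

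**Figure D3:**
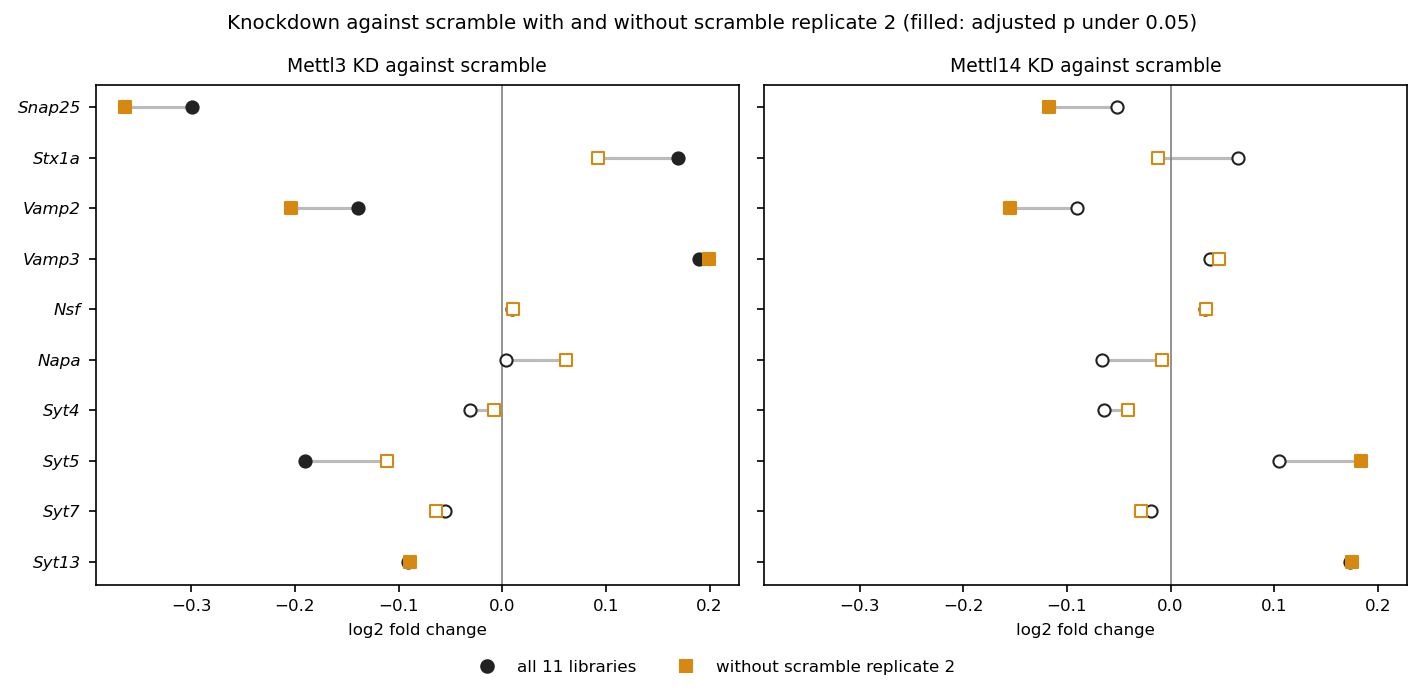
Log2 fold change of each gene against scramble (horizontal axes) with all 11 libraries (circles) and without scramble replicate 2 (squares), filled where edgeR's adjusted p was under 0.05, for Mettl3 KD on the left and Mettl14 KD on the right. Snap25, Vamp2 and Syt5 become filled in Mettl14 KD, while Stx1a and Syt5 become open in Mettl3 KD.

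Leaving out scramble replicate 2 moved the calls against scramble. That library held the lowest Snap25, Stx1a, Vamp2 and Syt7 and the highest Napa, Syt4 and Syt5 of the 3 scramble libraries, with log2 offsets from the mean of the other scramble libraries between -0.25 for Stx1a and 0.23 for Syt5. Without it, the 4 members that passed in Mettl3 KD were 1 higher and 3 lower, against 2188 higher and 2155 lower over all genes. The 4 that passed in Mettl14 KD were 2 higher and 2 lower, against 1337 higher and 1449 lower over all genes. Snap25 was then at -0.36 ± 0.03 in Mettl3 KD and at -0.12 ± 0.03 in Mettl14 KD, and both passed (edgeR, adjusted p = 1.96e-11 and 0.00796). The coefficient of variation of Snap25 was 2.52% within Mettl3 KD and 3.46% within Mettl14 KD, against 8.22% within scramble, and that of Napa 1.27% and 1.24%, against 7.30%. For Syt7 it was the smaller in scramble, at 2.41% within Mettl3 KD and 2.49% within Mettl14 KD, against 1.40% within scramble, and for Syt13 it was 2.20% and 1.23%, against 1.27%.

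Ratios between counts of a single library, which no scaling between libraries can move, were taken for a few pairs chosen after their values were seen. Snap25 to Stx1a was 5.88, 5.92, 6.46 and 5.98 in Mettl3 KD and 8.17, 7.79, 7.65 and 7.29 in Mettl14 KD, against 8.24, 8.58 and 8.36 in scramble. The 3 groups did not overlap, Mettl3 KD being the lowest, and scramble replicate 2 was not apart from the other scramble libraries here. Vamp2 to Vamp3 was 1.80, 1.73, 1.70 and 1.77 in Mettl3 KD and 2.15, 1.97, 1.97 and 1.96 in Mettl14 KD, against 2.35, 1.97 and 2.28 in scramble. Mettl3 KD was below both other groups, which overlapped each other. Syt13 to Syt7 was 2.41 to 2.43 in Mettl3 KD and 2.71 to 2.89 in Mettl14 KD, against 2.45 to 2.51 in scramble, with no overlap. Set against Syt4 in place of Syt7, Syt13 stood at 3.11 to 3.28 in Mettl3 KD and 3.77 to 4.05 in Mettl14 KD, against 3.21 to 3.35 in scramble. Mettl14 KD was again above both other groups, but Mettl3 KD and scramble overlapped, so that their separation depends on the partner chosen. Snap25 to Snap23, the SNARE of similar build found in most cell types, was 4.96 to 5.71 in Mettl3 KD and 5.68 to 6.69 in Mettl14 KD, against 7.06 to 7.74 in scramble, so that the knockdowns overlapped each other and both lay below scramble. These ratios were not tested and stand as a description.

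**Figure D4:**
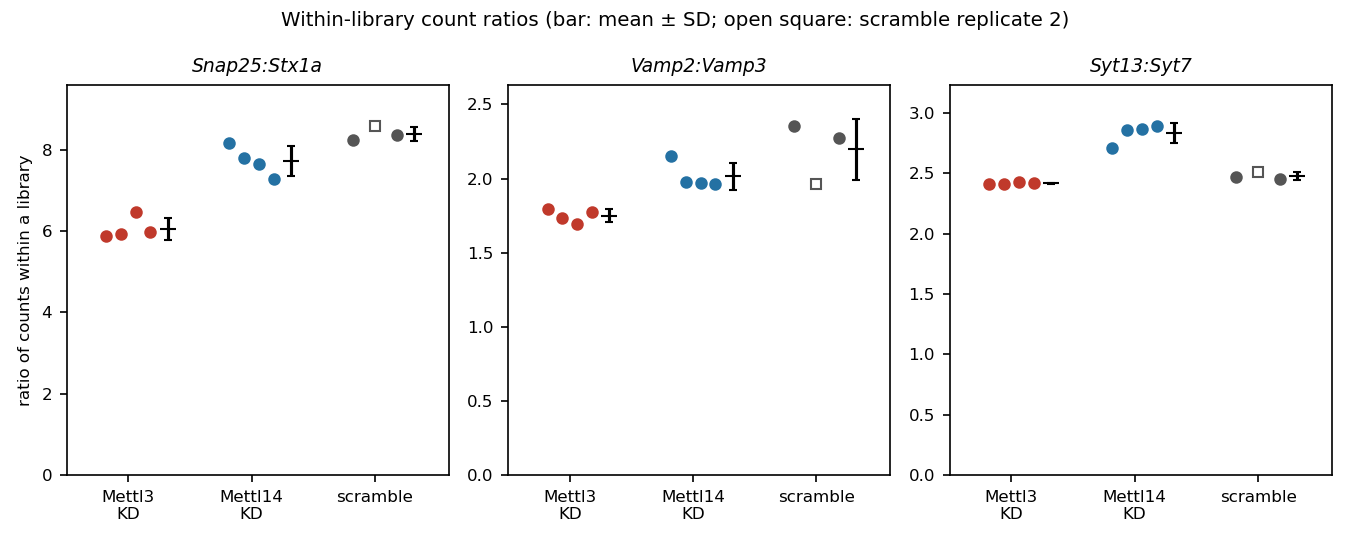
Ratios of counts within each library (vertical axes, each from 0) for Snap25 to Stx1a, Vamp2 to Vamp3 and Syt13 to Syt7 in Mettl3 KD, Mettl14 KD and scramble, with mean ± SD and scramble replicate 2 as an open square. The 4 Mettl3 KD libraries are the lowest for each ratio, and Mettl14 KD is the highest for Syt13 to Syt7.

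The rest of the fusion machinery was counted in 3 lists of 74 genes in all. Of 34 other SNAREs and adaptors 31 were tested. In Mettl3 KD 5 rose and 4 fell (29% called, against 31.3% of all genes). In Mettl14 KD 5 rose and 4 fell (29%, against 20.9% of all genes). The median log2 fold changes of these 31 were -0.01 and 0.05. The split in Mettl14 KD moved with the scramble libraries. It was 1 higher and 5 lower without scramble replicate 2, where 1337 of all genes were higher and 1449 lower. It was 8 higher and 3 lower without scramble replicate 3, where 1392 of all genes were higher and 1309 lower. Without scramble replicate 2, 4 were higher and 6 lower in Mettl3 KD, against 2188 higher and 2155 lower over all genes. Bnip1, a SNARE of the endoplasmic reticulum, fell to 25.8 ± 1.03 CPM in Mettl3 KD libraries and 23.8 ± 0.842 CPM in Mettl14 KD, against 32.7 ± 1.54 CPM in scramble, by 0.34 ± 0.05 and 0.46 ± 0.05 (edgeR, adjusted p = 3.27e-05 and 1.85e-06). Vamp4, a vesicle SNARE of the trans-Golgi network, fell by 0.21 ± 0.04 in Mettl3 KD and by 0.16 ± 0.04 in Mettl14 KD (edgeR, adjusted p = 0.000250 and 0.00589). Stx11, a syntaxin of immune cell granule release, was at -0.30 ± 0.11 in Mettl3 KD against scramble, which did not pass (edgeR, adjusted p = 0.0508), and fell by 0.50 ± 0.11 in Mettl14 KD (edgeR, adjusted p = 0.00388), at 4.99 ± 0.702 CPM in Mettl14 KD against 7.05 ± 0.949 CPM in scramble. In Mettl3 KD against Mettl14 KD 0 of these 31 passed edgeR's quasi-likelihood test, DESeq2 or limma-voom, and 4 had an unadjusted p under 0.05 in edgeR. Of all genes 8.1% passed edgeR's test there after adjustment. The share of all genes with an unadjusted p under 0.05 was not counted, so those 4 have no background beside them.

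Of 20 other synaptotagmins and related C2 proteins 10 were tested. In Mettl3 KD 3 fell (30% called, against 31.3% of all genes). In Mettl14 KD 4 fell and 1 rose (50%, against 20.9% of all genes). The medians of the list were -0.07 and -0.09. Syt1, the calcium sensor of fast synaptic release, was at 29.1 ± 1.66 CPM in Mettl3 KD libraries and 33.4 ± 1.88 CPM in Mettl14 KD, against 38.9 ± 0.289 CPM in scramble, a decrease of 0.42 ± 0.05 and 0.22 ± 0.05 (edgeR, adjusted p = 3.94e-06 and 0.00472). Syt2, its closest relative, was at 74.1 ± 1.24 CPM in Mettl3 KD libraries and 87.0 ± 0.836 CPM in Mettl14 KD, against 93.2 ± 3.10 CPM in scramble, and fell by 0.33 ± 0.03 in Mettl3 KD and by 0.10 ± 0.03 in Mettl14 KD (edgeR, adjusted p = 2.96e-07 and 0.0368). Syt3 fell by 0.44 ± 0.06 in Mettl3 KD and by 0.25 ± 0.06 in Mettl14 KD (edgeR, adjusted p = 2.25e-05 and 0.00643). In the direct comparison 1 was higher and 3 were lower in Mettl3 KD (40% called, against 8.1% of all genes). Syt2 was lower in Mettl3 KD by 0.23 ± 0.03 and Esyt1, an extended synaptotagmin of contacts between the endoplasmic reticulum and the plasma membrane, by 0.16 ± 0.03 (edgeR, adjusted p = 8.12e-05 and 0.00245).

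Of 20 regulators of SNAREs, among them the complexins, 18 were tested. In Mettl3 KD 5 rose and 2 fell (38.9% called, against 31.3% of all genes). In Mettl14 KD 7 rose and 1 fell (44.4%, against 20.9% of all genes). The medians of the list were 0.03 and 0.04. Cplx1, complexin 1, which clamps and promotes fusion, rose to 492 to 519 CPM in Mettl3 KD libraries and 498 to 532 CPM in Mettl14 KD, against 393 to 441 CPM in scramble (0.27 ± 0.04 and 0.30 ± 0.04; edgeR, adjusted p = 1.48e-05 and 6.10e-06). Vps33a, of the lysosomal tethering complexes, rose by 0.22 ± 0.03 and 0.17 ± 0.03 (edgeR, adjusted p = 2.87e-05 and 0.000519). In the direct comparison 2 were lower in Mettl3 KD (11.1% called, against 8.1% of all genes). Among them was Cplx2, complexin 2, at 133 ± 4.09 CPM in Mettl3 KD libraries and 152 ± 6.23 CPM in Mettl14 KD. Its difference was -0.20 ± 0.03 (edgeR, adjusted p = 0.000725). Away from the rule for naming genes, and chosen after their values were seen, the calls furthest from 0 were Doc2g, a C2 protein of the synaptotagmin list, at -1.04 ± 0.30 in Mettl14 KD against scramble and 0.97 ± 0.28 in the direct comparison (edgeR, adjusted p = 0.0164 and 0.0348), and Stxbp6, amisyn, at -0.98 ± 0.23 in Mettl3 KD and -0.77 ± 0.22 in Mettl14 KD (edgeR, adjusted p = 0.00251 and 0.0184). The SE of Doc2g and Stxbp6 were wider than any other SE given here. Their levels and their fits with a library left out are not given, so these calls were not checked further. The shares called are to be read against those of all genes given above, and the lists were not compared with other genes.

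**Figure D5:**
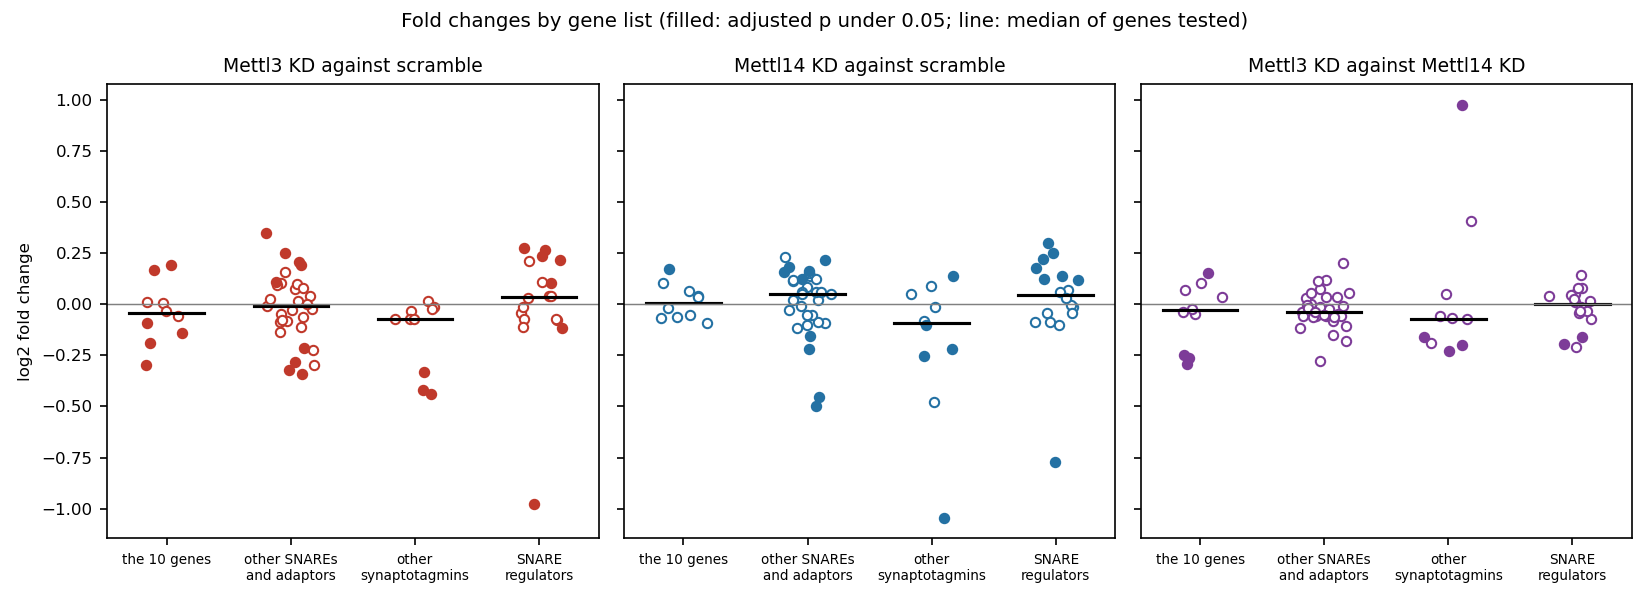
Log2 fold change (vertical axis) of each tested gene of the 10 and of the 3 further lists in the 3 comparisons, filled where edgeR's adjusted p was under 0.05, with the median of each list as a line. The 10 genes have filled points on both sides of 0 in Mettl3 KD against scramble (2 higher, 4 lower), and no gene of the other SNAREs is filled in the direct comparison. Of all genes 31.3% passed in the former comparison and 8.1% in the latter.

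The m6A complex prefers a short consensus around GGACT, so the letters GGACT were looked for on the sense strand of the longest coding transcript of each gene in GENCODE M21. A match is not a methylated site, and methylation was not measured. The sites of the 4 genes that passed in the direct comparison are shown with 10 bases on either side and GGACT in capitals, 5′ to 3′ as DNA letters.
Snap25 site 1: gctggcatcaGGACTttggttatgt
Vamp3 site 1: acagatttctGGACTgggaaagagg
Vamp3 site 2: ctgggaaagaGGACTtgtgtagttc
Syt5 site 1: agtattcactGGACTatgacttcca
Syt5 site 2: gcaagctcagGGACTggctgcgttg
Syt5 site 3: ggatgtaggaGGACTctcagatccc
Syt13 site 1: acttccgcctGGACTatgaccagaa
Syt13 site 2: acagtgagtgGGACTggcactcaga
Syt13 site 3: gaggagtccgGGACTgctgttcagg

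The single Snap25 site and all 3 Syt5 sites lay in coding sequence, both Vamp3 sites in the 3′ untranslated region, and Syt13 had 1 coding site and 2 in that region. The nearest sites past a stop codon began 206 bases after the last coding base in Syt13 and 234 bases after it in Vamp3. Per kilobase, Snap25 had 0.473, Vamp3 0.943, Syt5 1.71 and Syt13 0.798 sites, against a median of 1.03 over the 13731 tested genes with a sequence, 90.6% of which held at least 1. Among the other members the density was 1.86 for Nsf, 1.85 for Stx1a, 1.06 for Syt7, 0.907 for Vamp2, 0.397 for Napa and 0.257 for Syt4. The genes that passed and those that did not thus both had members above and below the median. Whether the number or density of sites goes with the calls was not tested.

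For each member the gene with the closest profile was sought among 11267 other tested genes with a symbol and a mean of at least 50 counts, by the root mean square difference of log2 CPM centred over the 11 libraries. For Snap25 it was Smarca2 (0.0483), for Stx1a Ranbp1 (0.0344), for Vamp2 Cyb5b (0.0363), for Vamp3 Spata2 (0.0286) and for Syt13 Sel1l3 (0.0370). For Syt5 it was Cox6a1 (0.0704). For the members that varied least the nearest genes were Sh3kbp1 for Nsf (0.0185), Tor2a for Napa (0.0243), Api5 for Syt4 (0.0215) and Dazap2 for Syt7 (0.0238). A small difference is bounded by a member's own spread, whose SD on the log2 scale was 0.0288 for Nsf and 0.0373 for Syt7, against 0.151 for Snap25, so these differences do not rank the matches. No member was the nearest gene of another.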

How the data were processed

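Messenger RNA of 11 alphaTC1-6 libraries was measured by stranded sequencing, per the labels' protocols. The authors deposited estimated counts per Ensembl gene, and the submitters' processing notes name kallisto without a version. The sources used here give no genome build, annotation or rule for summing transcripts to genes. The deposited expected counts (11.6% not whole) were rounded; 48651 of 53947 rows matched a symbol, and rows without one held 0.518% of counts. Genes were kept by filterByExpr with a minimum count of 10, leaving 14133 with 99.9% of counts, and scaled by TMM. All 11 libraries entered 1 fit with a mean per group, tested by robust quasi-likelihood (edgeR 4.0.16, R 4.3.3) with Benjamini-Hochberg adjustment at 0.05; there were 8 residual degrees of freedom. SE is the absolute log2 fold change over the square root of F, an approximation. All replicate pairs differed by more than sampling of counts. The test was also run on simulated data. The changes set there were larger than those called in members and no library stood apart, so that run does not cover these calls.

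Members and lists were chosen with earlier results of these data known. All 10 members are named, with the 2 genes of smallest adjusted p per further list and comparison and the nearest profile of each member, except 1 gene that is not reported here; Snap23 in the ratios was chosen after its values were seen. Transcript lengths and sequences are from GENCODE M21 (GRCm38), which may not be the authors' annotation; no coordinates are given. Alternatives were other scalings, no filter, DESeq2 1.42.0, limma-voom (limma 3.58.1), 2-group fits, a replicate block and leaving out each library.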

Additional observations from a re-analysis of the deposited data

Results flagged for a closer look

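In 30 sets of 4 libraries (the 10 genes and 5 within-library ratios in either knockdown), a library was looked for whose distance to its nearest neighbour took up more of the set's range than Dixon's 95% critical value; chance gives about 1 in 20. It was found 3 times. Snap25 in Mettl3 KD replicate 2 was at 184 CPM, against 175 to 176 CPM in the other Mettl3 KD libraries, and still below each Mettl14 KD and scramble library. The ratio of Syt13 to Syt7 in Mettl14 KD replicate 1 was 2.71, against 2.86 to 2.89 in the other Mettl14 KD libraries. In the same library the ratio of Vamp2 to Vamp3 was 2.15, against 1.96 to 1.97.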

How the results depend on the processing

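Snap25 and Vamp3 in Mettl3 KD against scramble, Syt13 in Mettl14 KD against scramble, and Snap25, Syt5 and Syt13 in the direct comparison kept their direction and passed under all 7 other settings and with each library left out. Members called in Mettl3 KD numbered 6, but 3 when only the 2 groups compared were fitted, and 3 to 6 with a library left out; all genes called were 4420, 3724 and 3705 to 4343 in these fits. In Mettl14 KD they numbered 1, and 1 to 4 with a library left out (all genes 2956, and 2276 to 3091); 4 came without scramble replicate 2. In the direct comparison 1145 of all genes were called, 2187 when only the 2 groups were fitted, and 713 to 2125 with a library left out, the most without scramble replicate 2. Stx1a in Mettl3 KD lost its call under DESeq2, Vamp2 under limma-voom, Syt13 without the filter, and all 3 in the 2-group fit. Napa passed in the direct comparison in the 2-group fit, at 0.07 (adjusted p = 0.0485, edgeR). Signs changed for differences that were not called: Napa in Mettl3 KD was at -0.00059 with upper quartile scaling and -0.043 to 0.062 with a library left out, and Stx1a in Mettl14 KD at -0.012 to 0.123 with a library left out. Other SNAREs called in Mettl14 KD numbered 9, but 5 in the 2-group fit, under the replicate block or without Mettl14 KD replicate 3. All genes called in those fits were 2269, 2335 and 2521, against 2956. Other synaptotagmins called in Mettl14 KD numbered 5, but 3 under DESeq2 or without Mettl14 KD replicate 2. All genes called in those fits were 2467 and 2276. In the direct comparison 1 other SNARE was called, against 0, without the filter, in the 2-group fit, or without scramble replicate 2 or Mettl3 KD replicate 4, and 2 other synaptotagmins, against 4, without Mettl14 KD replicate 2 or 3. All genes called in that comparison ranged from 839 to 2187 under the other settings and from 713 to 2125 with a library left out. The causes were not tested.

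Libraries of equal number did not deviate together (correlations of deviations from -0.12 to 0.07), and of the libraries with a partner 1 of 3, 0 of 3 and 2 of 4 in the 3 comparisons correlated best with their own number. With the replicate block, 4 members were called in Mettl3 KD (3784 of all genes), 1 in Mettl14 KD (2335) and 4 in the direct comparison (839); Stx1a and Syt13 in Mettl3 KD were then at 0.17 and -0.09 (adjusted p = 0.0836 and 0.0624, edgeR), Nsf at -0.0020 and Napa at -0.00024. At 462 counts in the shallowest case, counting error alone limits Stx1a and Syt5 more than the other members.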
